A study of Mus musculus with 32 samples.

Results

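The 6 kidneys described here came from NZM2410 lupus mice in remission after Ad-BAFF-R-Ig, and they were taken by their sample titles from the 32 kidneys of the series. The question was how far kidneys that carry the same label differ from one another, and which injury, macrophage, matrix and tubular genes differ together. Ad-BAFF-R-Ig is an adenoviral vector from which the mouse makes BAFF-R-Ig, a decoy receptor in soluble form for BAFF, on which the survival of B cells depends. All 6 mice had the same strain, treatment and disease state in the labels, and their age and the interval since treatment are not given in the sources used here. The other 26 kidneys were from NZB/W mice and served only to compare the spread. They came from mice in late remission after Ad-TACI-Ig with CTLA4Ig (5 kidneys), in late remission after triple therapy with cyclophosphamide (CTX), CTLA4Ig and anti-CD154 (6), in early remission after the same triple therapy (8), and from mice 30 weeks old and not proteinuric (7). Each array held RNA of 1 whole kidney, and the kidneys of the study were perfused. The labels number the kidneys of a group as separate samples, so the p-values below measure the spread between these samples. The sample names of NZM2410 replicates 1 to 4 hold the letters MP and those of replicates 5 and 6 the letters VO, and the meaning of the letters is not given.

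NZM2410 is a lupus strain whose kidneys scar in the glomeruli and hold few lymphocytes, and tubules of nephritic kidneys atrophy. In an injured tubule, proximal cells lose transporters and enzymes of fatty acid oxidation and begin to express injury molecules such as Havcr1 (kidney injury molecule 1) and Lcn2 (lipocalin 2). Macrophages enter the interstitium around such tubules, and fibroblasts deposit collagens and fibronectin. In RNA of a whole kidney, fewer cells of a type and less RNA per cell cannot be told apart.

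Values were log2 expression values, on which a difference of 1 is a 2-fold difference. The 6 NZM2410 arrays correlated with each other at 0.9864 to 0.9969 over 15780 named genes. Their medians over all probe sets ranged from 7.13 to 7.16. Kidney identity was plain in all 6, with Umod (uromodulin of the thick ascending limb) at 13.92 to 14.05 and Slc34a1 (the sodium phosphate cotransporter of the proximal tubule) at 13.29 to 13.45. Xist ranged from 9.83 to 10.72, and Eif2s3y, a gene of the Y chromosome, did not exceed 3.37. The difference between the 3′ and 5′ actin probe sets, a measure of RNA integrity, was 0.78 in replicate 3 and 0.95 to 1.07 in the other 5 kidneys. Its part in the results for replicate 3 was not tested.

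Most genes varied little among the 6 kidneys. Of 15780 named genes, 10659 had a mean of at least 6, and their median SD was 0.12 (quartiles 0.084 and 0.17). An SD of at least 0.5 was found for 199 genes (1.87% of 10659), an SD of at least 1 for 14, and an SD of at least 1.5 for Adipoq and Lcn2 only. Just inside the SD limit of 0.5 lay Emilin1, S100a4 and H2-K1 (SDs 0.5004, 0.501 and 0.504), and just outside it Pim3, Fabp4 and Igf2, each with an SD of 0.499. The mean limit of 6 kept Enox1 (mean 6.005) and left out Gabrp (mean 5.91, SD 0.78). Among genes with a mean of at least 8, the steadiest were Fundc1 (SD 0.0139), Bpgm, Rnf166, Polr2g and Nipa2. Umod and Slc34a1 were also steady, with SDs of 0.053 and 0.061.

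**Figure D1:**
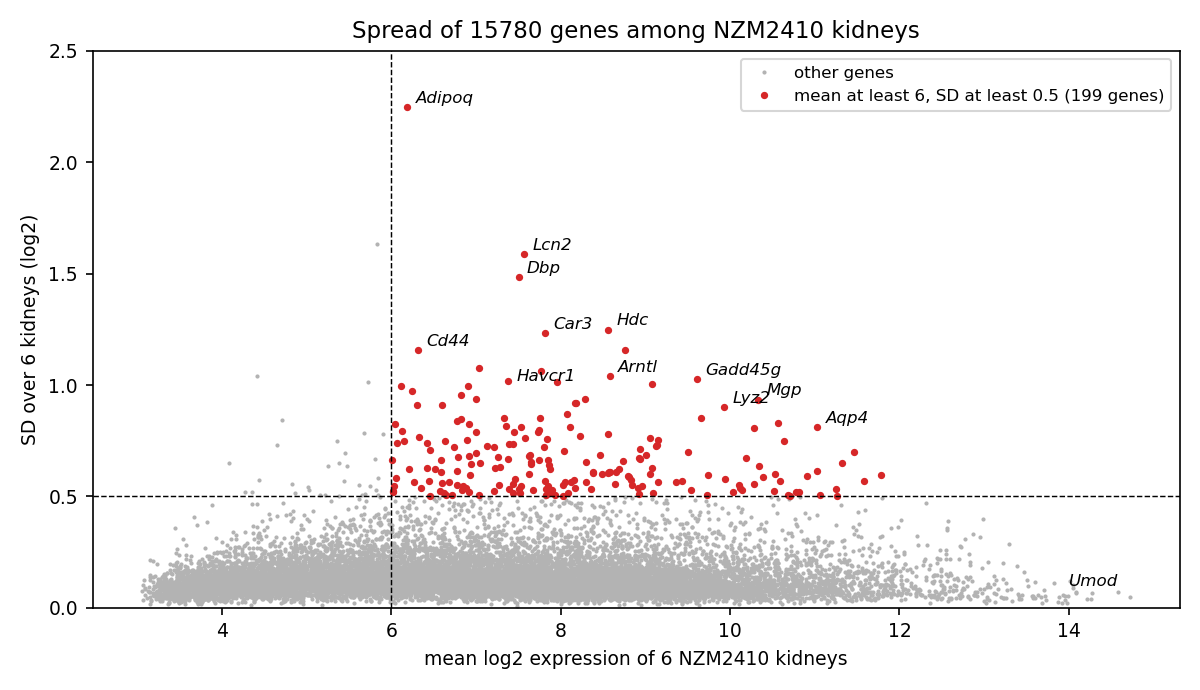
SD over the 6 NZM2410 kidneys (y axis, log2) against the mean log2 expression (x axis) of 15780 genes, 1 point per gene, with dashed lines at a mean of 6 and an SD of 0.5. The 199 genes past both limits are red, with Adipoq (SD 2.25) and Lcn2 (SD 1.59) on top, whereas Umod (SD 0.053) lies near 0.

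The variable genes were mostly high in 1 kidney and low in another. Of the 199 genes, 115 were highest in replicate 3, against 19.4% of all genes with a mean of at least 6, and 113 were lowest in replicate 2, against 18.8%. Replicates 5 and 6 held the highest value of 25 and 26 of them, against 13.6% and 10.8% of all genes. The other way round, replicate 3 was lowest in 21 of the 199 (30.6% of all genes) and replicate 2 highest in 12 (28.3% of all genes). A principal component analysis of the genes gave a first component with 48.2% of the variance, on which replicate 3 scored 22.28, replicate 6 scored 6.29 and replicate 2 scored -15.55. The second component held 21.02% and set replicates 5 and 6 (10.69 and 7.63) apart from replicates 4 and 1 (-10.10 and -7.79). Without replicate 3 the number of genes with an SD of at least 0.5 was 117, and with another kidney left out it was 174 to 240.

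Injury genes of the tubule spread widely, and replicate 3 led them. Lcn2, an iron-sequestering protein secreted by injured distal tubules, had values of 6.60, 6.37, 10.14, 6.0, 7.64 and 8.65 in replicates 1 to 6. Replicate 3 was highest and replicate 6 next, and replicates 1, 2 and 4 stayed close together. Havcr1, a phosphatidylserine receptor of injured proximal tubules, had values of 7.06, 6.83, 9.43, 6.69, 7.04 and 7.25. Here replicate 3 stood alone, and the SD of 1.02 over 6 kidneys was 0.22 without it. Cd44, a hyaluronan receptor that appears on injured epithelium and is carried by leukocytes, was 8.54 in replicate 3 and 5.52 to 6.56 in the others. Its mean (6.31) passed the limit of 6 only through replicate 3, so its place among the variable genes rests on that kidney. Socs3, the feedback inhibitor of STAT3 signalling, was 8.48 in replicate 3 and 7.81 in replicate 6, whereas the other 4 kidneys lay between 6.19 and 6.71. Vcam1, an adhesion molecule of activated endothelium and injured tubules, reached 10.08 in replicate 3, with 7.63 to 8.55 elsewhere. Anxa1 (annexin A1) was 12.05 in replicate 3 and 10.18 to 10.92 in the other kidneys. Igfbp1, a binding protein of insulin-like growth factors, followed another order, with 11.27 in replicate 1 and 9.80 in replicate 3.

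As a group, 45 of 50 measured members of the tubular injury list had a mean of at least 6. Their median SD was 0.39, against 0.12 over all genes, and 13 of the 45 (28.9%) had an SD of at least 0.5. Replicate 3 was highest in 32 members and replicate 6 in 7, and replicate 2 was lowest in 18. The list score, the mean of the members after each gene was centred on the 6 kidneys, was 0.68 in replicate 3, 0.18 in replicate 6 and -0.29 to -0.09 in the others. Without replicate 3 the median SD was 0.22, and replicate 6 then had the highest score (0.31). Of the 56 genes listed, 6 were not measured and 5 had a mean under 6. Cd44 was among the 45 only through replicate 3. With no minimum mean the score of replicate 3 was 0.69.

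Lcn2, Cd44, Havcr1 and Socs3 were the injury members of highest SD whose promoters were in the RefSeq table. For this reason the 250 bases before their annotated starts are shown (build GRCm38.p6, each 5′ to 3′ on the strand of its gene). They were searched on both strands for the STAT motif TTCNNNGAA, which reads the same on either strand and is set in capitals where found.
Lcn2 (chr2:32387740-32387989, minus strand): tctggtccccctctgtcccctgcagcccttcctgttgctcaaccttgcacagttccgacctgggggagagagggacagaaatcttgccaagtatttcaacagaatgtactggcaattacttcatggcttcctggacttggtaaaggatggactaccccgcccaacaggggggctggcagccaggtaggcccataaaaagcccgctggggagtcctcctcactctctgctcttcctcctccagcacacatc
Cd44 (chr2:102901666-102901915, minus strand): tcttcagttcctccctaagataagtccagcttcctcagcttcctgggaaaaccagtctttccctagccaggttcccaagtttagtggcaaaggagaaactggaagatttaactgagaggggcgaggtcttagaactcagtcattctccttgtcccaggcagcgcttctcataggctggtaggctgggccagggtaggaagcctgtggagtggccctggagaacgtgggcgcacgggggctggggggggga
Havcr1 (chr11:46739973-46740222, plus strand, the first of 3 annotated starts): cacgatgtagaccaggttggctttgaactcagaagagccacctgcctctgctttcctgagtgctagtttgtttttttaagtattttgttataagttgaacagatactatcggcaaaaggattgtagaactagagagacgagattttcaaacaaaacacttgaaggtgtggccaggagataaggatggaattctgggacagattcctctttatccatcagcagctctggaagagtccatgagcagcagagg
Socs3 (chr11:117969367-117969616, minus strand): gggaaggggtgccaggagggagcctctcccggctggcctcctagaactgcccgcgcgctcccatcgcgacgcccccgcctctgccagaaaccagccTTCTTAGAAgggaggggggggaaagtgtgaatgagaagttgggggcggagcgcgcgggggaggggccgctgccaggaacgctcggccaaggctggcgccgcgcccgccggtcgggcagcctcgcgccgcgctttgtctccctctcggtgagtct
The motif was found once, in Socs3, where it begins 154 bases before the start. Of the injury members with a mean of at least 6, 33 had a promoter in the table and 4 of them held the motif in the window from 250 bases before to 50 after the start, against 9.55% of the 27025 genes in the table. These are matches of letters, and binding was not measured.

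Macrophage and dendritic cell genes differed widely between kidneys. Of 57 measured members, 47 had a mean of at least 6, their median SD was 0.57, and 27 of the 47 (57.4%) had an SD of at least 0.5. Replicate 3 was highest in 43 of the 47 and replicate 2 lowest in 37. The list score was 0.91 in replicate 3, 0.18 in replicate 6, -0.05 in replicate 5 and -0.54 in replicate 2. C1qa, a chain of complement C1q made by tissue macrophages, had values of 8.61, 8.38, 10.50, 8.86, 9.19 and 9.35 in replicates 1 to 6. The order of the kidneys below replicate 3 was graded rather than flat. Ms4a7, a marker of resident and infiltrating macrophages, was 9.02 in replicate 3, 7.36 and 6.98 in replicates 6 and 5, and 6.12 to 6.44 in the rest. Ctss, the cathepsin that trims the invariant chain, was 12.02 in replicate 3, 10.96 in replicate 6 and 9.76 in replicate 2. Lyz2 (lysozyme) and Mrc1 (the mannose receptor) had the same extremes, with 11.38 against 8.92 and 8.95 against 6.74 in replicates 3 and 2. Ccr2, the receptor by which monocytes enter tissue, differed from these, being 8.58 in replicate 3 and 6.53 to 6.96 in all others (SD 0.79, and 0.17 without replicate 3). Without replicate 3 the median SD of the list was 0.33 and replicate 6 scored highest (0.36).

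Antigen presentation, complement and interferon genes were also mostly highest in replicate 3. The lists overlap. Outside the macrophage list were 10 of the 14 complement genes and 6 of the 7 MHC class II genes with a mean of at least 6. All 7 MHC class II genes with a mean of at least 6 were highest in replicate 3, where the list score was 1.03 against -0.47 (replicate 1) to 0.08 in the other kidneys, and H2-Aa was 12.52 in replicate 3 and 10.73 to 11.51 elsewhere. For complement, 11 of 14 members were highest in replicate 3 and 10 lowest in replicate 2 (median SD 0.49). C1s1, a protease of the classical pathway, was 7.74 and 7.67 in replicates 3 and 6, and 5.81 in replicate 2. Among interferon-inducible genes, 25 of 32 were highest in replicate 3 and 27 lowest in replicate 2, with a smaller median SD of 0.26. Psmb8, a subunit of the immunoproteasome, was 10.15 in replicate 3 and 8.37 in replicate 2. Few lymphocyte genes were high enough to follow, since 9 of 26 T and NK cell genes and 8 of 25 B and plasma cell genes had a mean of at least 6. Ccl5, a chemokine of T and NK cells, was 8.63 in replicate 3 and 6.76 to 7.36 in the others, and Cd52, shared by lymphocytes and macrophages, was 10.26 and 8.29 to 9.14. Of 16 cell cycle genes, 13 were highest in replicate 3, with Cdc20, an activator of the anaphase complex, at 6.94 and 5.81 to 6.22.

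**Figure D2:**
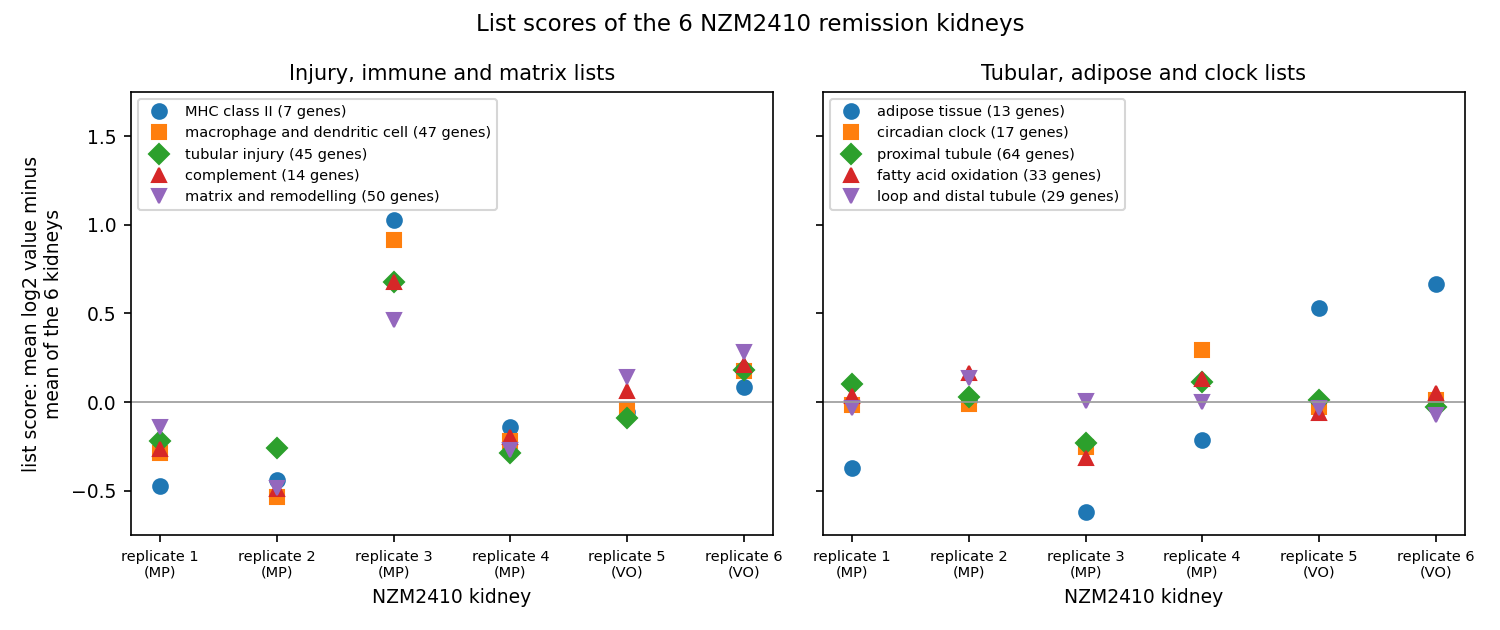
List scores (y axis, mean log2 value of the members minus their mean over the 6 kidneys) of each NZM2410 kidney (x axis, replicates 1 to 4 with MP and 5 and 6 with VO in their names), for 5 lists per panel. On the left the injury, immune and matrix lists are highest in replicate 3 (0.46 to 1.03) and next highest in replicate 6, and on the right the proximal tubule and fatty acid oxidation scores are lowest in replicate 3 while adipose genes are highest in replicates 5 and 6.

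Matrix genes kept more of their spread without replicate 3 than the injury genes did. The matrix and remodelling list had 50 of 61 measured members with a mean of at least 6, a median SD of 0.39 and 21 members (42.0%) with an SD of at least 0.5. Replicate 3 was highest in 29, replicate 5 in 9 and replicate 6 in 8, and replicate 2 was lowest in 32. Over all genes, replicates 5 and 6 were highest in 13.6% and 10.8%, and replicate 6 was highest in 7 of the 45 injury genes. Scores were -0.14, -0.48, 0.46, -0.27, 0.14 and 0.29 in replicates 1 to 6. Col3a1, a fibrillar collagen of interstitial fibroblasts, had values of 8.67, 7.90, 10.63, 8.28, 9.26 and 9.72. Replicates 3, 6 and 5 thus led, in this order. Col1a2, a chain of type I collagen, kept it with 8.99, 8.07 and 7.90, against 6.66 in replicate 2. Ccn2, the connective tissue growth factor, was instead highest in replicate 6 (11.27), ahead of replicates 3 (10.88) and 5 (10.71), with replicate 2 at 9.12. Col6a1 was highest in replicate 5 (8.56), and Col6a3 in replicate 6 (8.60). Outside the list, Mgp, the matrix Gla protein of vessels and stroma, was 11.71 in replicate 3 and 9.29 in replicate 2, and Cdh11, a cadherin of mesenchymal cells, was 9.20 and 6.35. Without replicate 3 the median SD of the list was 0.35, so this list depended less on 1 kidney than the injury and macrophage lists.

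Proximal tubule genes varied less, and replicate 3 was the lowest kidney. Of 67 measured members, 64 had a mean of at least 6, with a median SD of 0.21, and 44 of the 64 were lowest in replicate 3 (30.6% of all genes were). Scores were 0.10, 0.03, -0.23, 0.11, 0.01 and -0.03 in replicates 1 to 6. Cndp1, the carnosine dipeptidase, had values of 9.31, 9.37, 8.46, 9.48, 9.39 and 9.37. The other 5 kidneys were almost equal (SD 0.063), and replicate 3 alone was low. Mep1b, a brush border metalloprotease, was 10.86 in replicate 3 and 11.36 to 11.84 in the others. Ace, the angiotensin-converting enzyme of brush border and endothelium, was 8.85 in replicate 3 and 9.41 to 9.69 elsewhere. Not all proximal genes had this order, because Slc6a19, the neutral amino acid transporter, was lowest in replicate 2 (9.67) and highest in replicates 4 and 1 (11.18 and 11.16). Slc5a2, the glucose transporter of the early proximal tubule, ranged from 11.21 to 11.52.

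Enzymes of fatty acid oxidation followed the proximal genes over 6 kidneys, and less so without replicate 3. For the 31 outside the proximal tubule list, the median correlation with the proximal tubule score was 0.78, with 31 positive. Over the 5 kidneys without replicate 3 it was 0.30, with 21 positive. In 29 of 33 members replicate 3 was lowest, and in 17 replicate 2 was highest, with scores of -0.32 and 0.16 and a median SD of 0.19. Acot3, a peroxisomal thioesterase, was 9.24 in replicate 3 and 9.72 to 10.55 in the other kidneys. Oxidative phosphorylation genes spread least of the groups with over 20 members, with a median SD of 0.055 over 32 members, and still 26 of the 32 were lowest in replicate 3 by small amounts (score -0.08). Ndufv1, a subunit of complex I, was 10.93 in replicate 3 and 11.10 to 11.25 elsewhere.

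Genes of distal segments and glomeruli differed less than proximal tubule genes (median SD 0.21), but more than all genes (0.12). The median SD was 0.16 in the loop and distal tubule list and 0.19 in the collecting duct list. The loop and distal tubule list scored 0.13 in replicate 2 and -0.07 to 0.01 in the others, with 11 of 29 members highest in replicate 2. Cldn16, the claudin of magnesium uptake in the thick ascending limb, was nevertheless 9.63 in replicate 3 and 8.51 to 8.86 elsewhere. In the collecting duct list, the score was likewise highest in replicate 2 (0.12), while 12 of 26 members were highest in replicate 3 and 7 in replicate 2. Aqp3, a basolateral water channel, was 9.65 in replicate 3 and 8.88 to 9.11 elsewhere, but Aqp4, another basolateral channel, was lowest there, with values of 11.70, 11.62, 9.50, 11.35, 11.14 and 10.89 in replicates 1 to 6. Podocyte genes were lowest in replicate 2 in 10 of 18 members and highest in replicate 3 in 8 (median SD 0.17), with Nphs1 (nephrin) between 6.90 and 7.36. The cyclin-dependent kinase inhibitor Cdkn1c of podocytes ranged from 9.71 in replicate 2 to 10.62 in replicate 3.

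**Figure D3:**
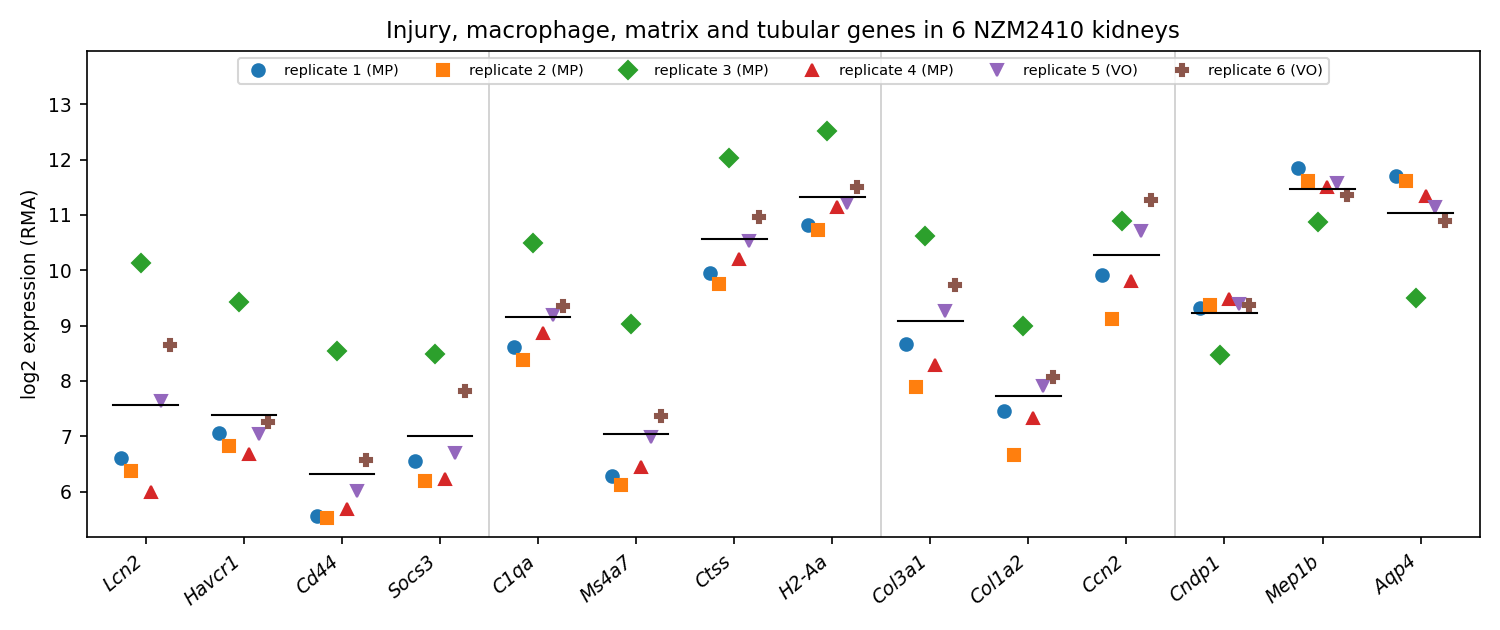
Log2 expression (y axis) of 14 genes (x axis) in each of the 6 NZM2410 kidneys, 1 point per kidney with the group mean as a line, ordered as injury, macrophage and MHC class II, matrix, and tubular genes. Replicate 3 is the top point of each injury and macrophage gene, Ccn2 is highest in replicate 6 (11.27), and Cndp1, Mep1b and Aqp4 are lowest in replicate 3.

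The groups varied together, and in part also without replicate 3. Over 6 kidneys the median correlation of the 47 macrophage genes with the injury score was 0.93. For all 10614 genes outside the injury list, macrophage genes included, it was -0.16. Over the 5 kidneys without replicate 3 the medians were 0.76 for the macrophage genes and -0.04 for the 10614. The injury list holds genes that leukocytes also carry, such as Cd44, and their part in this relation was not tested. The 13 adipose genes did not follow the injury score over 6 kidneys (median -0.21, 3 positive) but did over the same 5 kidneys (median 0.77, 11 positive), where their medians with the macrophage and matrix scores were 0.62 and 0.61, and their part in the relations over 5 kidneys was not tested. Matrix genes had a median correlation of 0.81 with the macrophage score over 6 kidneys and 0.88 over 5. Proximal tubule genes correlated negatively with the injury score, at a median of -0.64 over 6 kidneys, with 6 of 64 positive. Over 5 kidneys the median was -0.44, and 23 of the 64 were positive. Fatty acid oxidation genes were all negative over 6 kidneys (33 of 33, median -0.79), whereas 9 of the 33 were positive over 5. Members of a list come from the same 6 arrays, so these are descriptions of the kidneys and carry no p-value.

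Single genes were then set against each other over the 6 kidneys, in 45 pairs of 10 genes, with two-sided exact permutation tests whose smallest possible p was 0.00278. After Benjamini-Hochberg adjustment no pair passed 0.05 (lowest adjusted exact permutation p 0.0714 for r and 0.125 for rho), while 16 pairs had an unadjusted p under 0.05 for r and 6 for rho. No pair could pass by itself, since the smallest possible exact permutation p alone adjusts to 0.125 over 45 pairs. C1qa and Cd68, a lysosomal protein of macrophages, had r = 0.93 (exact permutation p = 0.00278, adjusted 0.0714) and rho = 1 (exact permutation p = 0.00278, adjusted 0.125). Leaving out replicates 2 and 3, the kidneys farthest from the median of C1qa, gave r = 0.90. Havcr1 and Lcn2 had r = 0.88 (exact permutation p = 0.00556, adjusted 0.0714) and rho = 0.94 (exact permutation p = 0.0167, adjusted 0.188), and r = 0.86 without replicates 3 and 4. For Lcn2 and Col1a1, a chain of type I collagen, r was 0.96 and rho 0.94 (exact permutation p = 0.00556 and 0.0167, adjusted 0.0714 and 0.188), with r = 0.86 without replicates 3 and 6. Havcr1 and C1qa had r = 0.92 and rho = 0.71 (exact permutation p = 0.05 and 0.136, adjusted 0.132 and 0.322), and r was 0.84 without replicates 3 and 4 and 0.59 without replicate 3 alone. The relation of injury genes to the tubular phosphate transporter was less uniform. Havcr1 and Slc34a1 had r = -0.83 and rho = -0.37 (exact permutation p = 0.167 and 0.497, adjusted 0.305 and 0.622), and r was 0.37 without replicates 3 and 4 and 0.04 without replicate 3 alone, so the negative coefficient rested on replicate 3.

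Havcr1 and Lcn2 did not have the same nearest genes. Among the 198 other genes with a mean of at least 6 and an SD of at least 0.5, those with the highest r to Havcr1 over 6 kidneys were Cx3cr1, the fractalkine receptor of monocytes and dendritic cells (0.99), Aoc1, Vcam1, Aif1 and Evi2a. Without replicate 3, r was 0.70 for Cx3cr1 and 0.52 for Evi2a, but 0.94 for Aoc1 (diamine oxidase) and 0.96 for Aif1, a calcium-binding protein of macrophages. Nearest to Lcn2 were Cygb, the cytoglobin of fibroblasts (r = 0.996, and 0.991 without replicate 3), Ccl12, Anxa2, Casp4 and Fcgr3. Without replicate 3 the lowest of the 5 was Fcgr3, a receptor of IgG, with 0.95. At the opposite end were Sucnr1, the succinate receptor (r to Havcr1 -0.96, and -0.39 without replicate 3), Aqp4, and for Lcn2 Tgm1, a transglutaminase (-0.99, and -0.97 without replicate 3), and Id1, a target of BMP signalling (-0.97 and -0.98). These genes were chosen by their likeness, and the values carry no test. Ccl12 (mean 6.30) also passed the mean limit of 6 only through replicate 3.

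A different order of kidneys was given by adipocyte genes. Adipoq (adiponectin), the gene of highest SD, had values of 4.16, 6.18, 3.71 and 5.37 in MP kidneys 1 to 4, against 8.92 and 8.80 in VO kidneys 5 and 6. The kidneys with different letters in their names therefore did not overlap. The mean of Adipoq (6.19) passed the limit of 6 only through the VO kidneys. Its place at the top of the ranking thus rests on the same values that set these kidneys apart. In a limma test of MP against VO kidneys over 15780 genes, 11 genes passed an adjusted p of 0.05 (0.0697%), all lower in MP kidneys, while at an unadjusted p under 0.05 there were 317 higher and 312 lower genes. Adipoq itself had an adjusted p of 0.175 (difference -4.00). Car3, a carbonic anhydrase abundant in fat, was 6.78, 7.56, 6.99 and 6.83 in MP kidneys, against 9.43 and 9.30 in VO kidneys (difference -2.32, limma adjusted p = 0.0219). Fabp4, the fatty acid carrier of adipocytes, was 10.40 to 10.71 in MP kidneys and 11.41 and 11.50 in VO kidneys (difference -0.94, limma adjusted p = 0.0418). With Adig (difference -0.87) and Retn (resistin, -0.97), 4 of 17 measured adipose genes were called. Rbp4, the retinol-binding protein, was 7.51 to 7.81 in MP kidneys and 9.56 and 9.09 in VO kidneys.

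Genes of other roles were called in the same comparison. Gadd45g, a stress-induced gene, was 9.24, 8.80, 9.05 and 8.75 in MP kidneys, against 10.91 and 10.93 in VO kidneys (difference -1.96, limma adjusted p = 0.0219). Igf1r, the receptor of insulin-like growth factor 1, and Kcnk5, a potassium channel of the proximal tubule, each differed by -1.14, with 7.99 to 8.38 and 7.89 to 8.22 in MP kidneys and at least 9.19 in VO kidneys. Gja1 (connexin 43), Gem (a small GTPase) and Ip6k2 (a kinase of inositol phosphates) differed by -0.93, -1.07 and -1.09. Beside these values, the adipose score was -0.62 to 0.01 in MP kidneys and 0.53 and 0.67 in VO kidneys, and its part in the other called genes was not tested. MP values lay wholly below VO values in 715 of 10659 genes (6.71%), in 27 of the 199 variable genes, in 6 of 13 adipose genes, in 6 of 50 matrix genes and in 3 of 45 injury genes. They lay wholly above VO values in 615 of the 10659 genes and in 8 of the 199 variable genes. By list, this held for 2 of the 13 adipose, 2 of the 50 matrix and 0 of the 45 injury genes. In the matrix list the difference was positive in 7 of 61 measured members (median -0.27), and 0 passed. The count of called genes changed with the MP kidney left out, being 1 without replicate 1, 3 without replicate 2 and 48 without replicate 3. Without replicate 4 it was 0 (247 higher and 267 lower in MP at an unadjusted limma p under 0.05). Leaving out replicate 5 or 6 leaves 1 VO kidney, so no count is given.

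Circadian clock genes set replicate 4 apart. Dbp, a clock output factor with a strong daily rhythm, had values of 8.79, 6.84, 6.97, 9.87, 6.18 and 6.36 in replicates 1 to 6. Replicates 4 and 1 were high and the other kidneys low. Arntl (BMAL1), whose rhythm is opposite to that of Dbp, was 6.60 in replicate 4, 8.24 in replicate 1 and 9.08 to 9.23 in the others. Per3 was likewise highest in replicates 4 (7.60) and 1 (6.67), and Nfil3, a repressor that opposes Dbp, was lowest in replicates 1 (6.27) and 4 (6.62) and highest in replicate 2 (8.26). Of 17 clock genes with a mean of at least 6, 8 (47.1%) had an SD of at least 0.5, and 9 were highest in replicate 4. The median SD was 0.48, and 0.31 without replicate 4. Per1, which also responds to glucocorticoids, did not follow, with 8.54 and 8.89 in replicates 5 and 6 and 6.96 to 7.58 in the others. The hour at which kidneys were taken is not given in the sources used here.

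Hdc, the histidine decarboxylase, had values of 9.68, 9.84, 7.85, 9.50, 7.05 and 7.45 in replicates 1 to 6, and Serpina6, the corticosteroid-binding globulin, had 9.17, 10.47, 7.53, 9.55, 7.78 and 8.04. In each, replicates 1, 2 and 4 were high and 3, 5 and 6 low. Immunoglobulin genes had a further order, in which replicate 5 led. Igkc, the kappa constant region, was 9.41 in replicate 5, 8.48 in replicate 3 and 6.64 in replicate 1. Igha (the IgA heavy chain) and Jchain, which joins polymeric antibodies, were also highest in replicate 5 (9.71 and 8.36) and then in replicate 3 (8.93 and 7.61). Ighm differed in being highest in replicate 3 (8.86). Genes of the unfolded protein response were highest in replicate 5 in 11 of 19 members and lowest in replicate 4 in 9, with Manf, a secreted chaperone of that response, at 11.40 and 10.06.

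**Figure D4:**
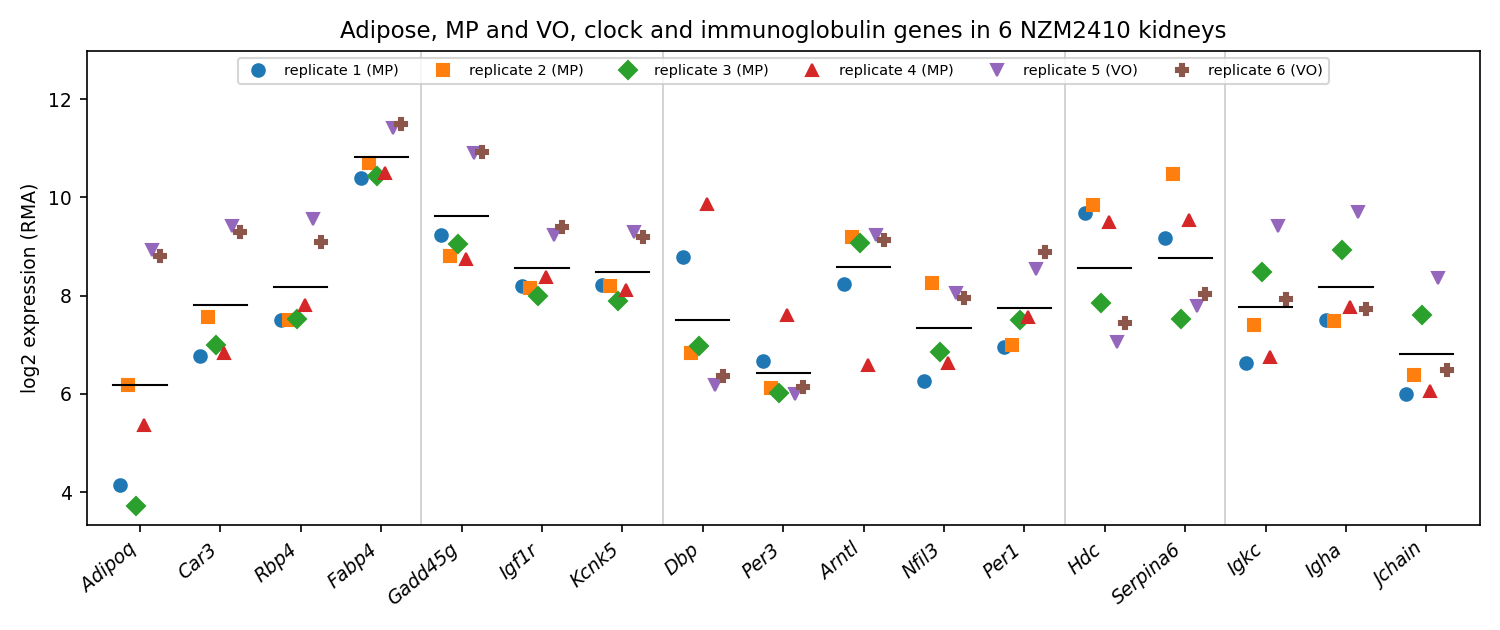
Log2 expression (y axis) of 17 genes (x axis) in each of the 6 NZM2410 kidneys, 1 point per kidney with the group mean as a line, ordered as adipose genes with Rbp4, other genes called between MP and VO kidneys, clock genes, Hdc and Serpina6, and immunoglobulin genes. Replicates 5 and 6 (VO) lie above the MP kidneys in the first 7 genes, Dbp is highest in replicate 4 (9.87), and Igkc, Igha and Jchain are highest in replicate 5.

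The spread of the NZM2410 kidneys was set against that of each NZB/W remission group by a limma test on absolute deviations from the group mean, a Levene-type test. Negative differences mean a smaller spread in NZM2410. All comparisons share the 6 NZM2410 kidneys. Against 5 late remission kidneys after TACI-Ig, 51 of 15780 genes passed (0.323%), 2 with a greater and 49 with a smaller spread in NZM2410, and the median difference over all genes was -0.04. Chchd1, a mitochondrial ribosomal protein, had an SD of 0.030 in NZM2410 and 0.34 in NZB/W (difference of mean deviations -0.31, limma adjusted p = 0.0227). Glycam1, a mucin of lymph node venules, and Ms4a1 (CD20) were steady at low values in NZM2410 (SDs 0.15 and 0.20) and spread in NZB/W (0.94 and 0.97). Atp6v0a4, a proton pump subunit of intercalated cells, had SDs of 0.099 and 0.70. Nfil3 went the other way, with an SD of 0.85 in NZM2410 and 0.22 in NZB/W (difference 0.66, limma adjusted p = 0.0365). None of the 51 was among the 50 injury, 57 macrophage or 61 matrix genes measured. At the share over all genes (0.323%), lists of this size hold few calls or none. Among tubular genes, 1 of 67 proximal tubule genes (Slc34a1) and 1 of 30 loop and distal tubule genes (Slc12a3) were called. In the collecting duct list it was 1 of 27 (Atp6v0a4), and all 3 had a smaller spread in NZM2410. Kidneys of the TACI-Ig group stood apart. Replicates 1 and 5 had 3′ minus 5′ actin differences of 1.5 and 1.29, against 0.66 to 0.99 in the other 3, and Gapdh differences of 0.42 and 0.37, against -0.06 to 0.18. In 38 of the 51 genes (74.5%), and in 42.9% of all genes, both lay above or both below the other 3 TACI-Ig kidneys. Chchd1, for example, was 10.04 to 10.13 in NZM2410 and 10.54 and 10.52 in these TACI-Ig kidneys, with 9.87 to 9.93 in the other 3. With both left out, a choice made after seeing the data, 0 genes passed (334 greater and 1812 smaller at an unadjusted p under 0.05). TACI-Ig replicate 3 had an Xist value of 7.81 against 10.67 to 11.01 in the other 4 kidneys of its group. Without replicate 3, 951 genes passed, 423 passed without TACI-Ig replicate 2, 240 without 4 and 81 without 1, and 0 passed with deviations from the group median. Without NZM2410 replicate 1, 2, 4, 5 or 6, 0 passed as well, while at an unadjusted p under 0.05 the spread was greater in 166 to 232 genes and smaller in 1958 to 2446.

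Against 6 late remission kidneys after triple therapy, 2 genes passed (0.0127%), both with a smaller spread in NZM2410. They were Nnat (neuronatin, SDs 0.11 in NZM2410 and 0.67 in NZB/W) and Fasn (fatty acid synthase, SDs 0.23 and 0.68), each with a limma adjusted p of 0.0164. At an unadjusted p under 0.05, 263 genes had a greater and 813 a smaller spread. One or both were lost without NZB/W replicate 7, 8, 9 or 10 and without NZM2410 replicate 2, 5 or 6, where 0 or 1 genes passed. Against 8 early remission kidneys, 15 genes passed (0.0951%), 5 with a greater and 10 with a smaller spread. Of the 10, 7 were among the 13 measured adrenal genes, such as Star, the cholesterol carrier of steroid-making cells, which was at 5.44 to 5.64 in NZM2410 and 5.09 to 9.19 in NZB/W (SDs 0.075 and 1.70, limma adjusted p = 0.00713). The 5 with a greater spread in NZM2410 were Smoc2, a matricellular protein, Cdkn1a (p21, an inhibitor of the cell cycle), Nfil3, Gpc6 and Rhob. Smoc2 was 5.59, 5.55, 6.70, 5.57, 6.20 and 6.52 in NZM2410 replicates 1 to 6 and 6.66 to 6.92 in NZB/W (SDs 0.52 and 0.097, limma adjusted p = 0.0102). Cdkn1a was 6.64 to 7.66 in NZM2410 and 6.93 to 7.21 in NZB/W (SDs 0.42 and 0.094, limma adjusted p = 0.0140), and with NZM2410 replicate 6 left out 8 genes passed in all.

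By list, and with no test of the lists, some groups spread more in NZM2410 although genes as a whole spread less. The median SD over the 10659 genes was 0.12 in NZM2410 and 0.18, 0.14, 0.14 and 0.14 in the TACI-Ig, late triple, early triple and 30-week groups of NZB/W. The median SD of the matrix list was 0.39 in NZM2410 and 0.31, 0.28, 0.21 and 0.22 in the same NZB/W groups. Complement and clock genes were also at the top in NZM2410, with 0.49 and 0.48, against at most 0.36 and 0.45 in NZB/W, but complement genes had 0.33 without NZM2410 replicate 3 and clock genes 0.31 without replicate 4. Tubular injury genes had 0.39 in NZM2410 and at most 0.37 in NZB/W, and only 0.22 without NZM2410 replicate 3. Macrophage genes had 0.57 in NZM2410 and 0.71, 0.59, 0.32 and 0.57 in the NZB/W groups. In the matrix list, 38 of 61, 44 of 61 and 46 of 61 measured members had the larger mean deviation in NZM2410 against TACI-Ig, late triple and early triple kidneys, where 4266, 5797 and 7333 of all 15780 genes did, and 0 of the 61 passed the limma test in any of the 3. The values of NZM2410 arrays were also wider as a whole, with SDs over probe sets of 2.12 to 2.18, against 1.91 to 2.04 in NZB/W arrays, and the part of this width and of the batch correction in these differences was not tested.

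**Figure D5:**
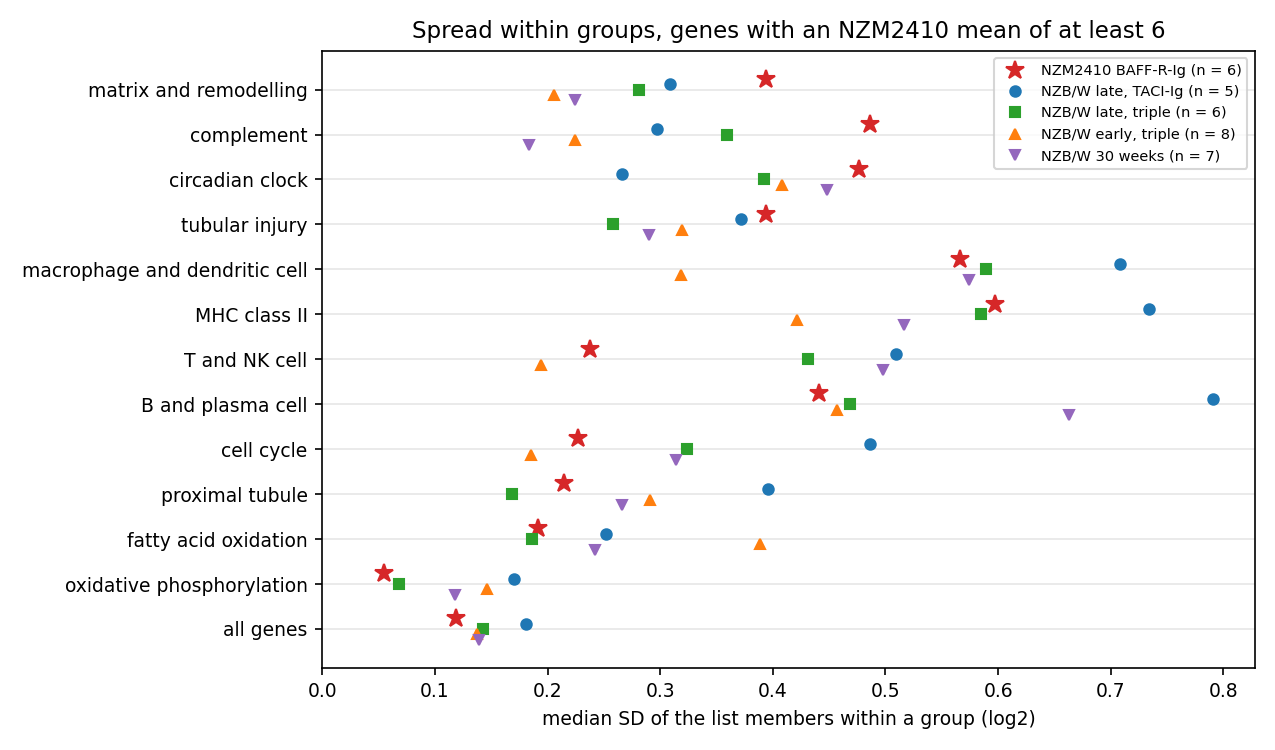
Median SD within a group (x axis, log2) of the members of 12 gene lists and of all genes (y axis), over genes with an NZM2410 mean of at least 6, for the NZM2410 group (stars) and the 4 NZB/W groups. The NZM2410 star is the rightmost point for the matrix (0.39), complement (0.49), clock (0.48) and tubular injury lists (0.39) and the leftmost for all genes (0.12).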

How the data were processed

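RNA of whole perfused kidneys was hybridised as biotinylated cRNA to Affymetrix GeneChip arrays, 1 array per kidney. The deposited values are log2 expression values, made by the authors with robust multi-array averaging (RMA) on 1 probe set per Entrez gene, normalized and corrected for batch over all 32 arrays together. The batches and the software versions are not given in the sources used here, and the effect of the correction on the spread within a group was not tested. Of 16539 probe sets, 64 array controls were left out of the gene analysis and 695 had no single gene name, which left 15780 named genes. Arrays give no read depth, and the number of kidneys limits the precision.

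Kidneys were grouped by their titles. Genes were ranked by their SD over the 6 NZM2410 kidneys among those with a mean of at least 6, and centred values were averaged over gene lists. Named genes were the 25 of highest SD, the 8 or 4 of highest SD in each list, the 10 genes of the correlations, the genes most and least like Havcr1 and Lcn2, and the leading genes of each test. Genes next to the limits, and Retn, Gpc6 and Rhob, called but not among the leading genes of a test, were named after their values were seen. The members and lists were chosen with earlier results of these data known. Spread was compared by limma 3.58.1 (R 4.3.3) on absolute deviations from the group mean, scaled for group size, and MP with VO kidneys by limma on the log2 values, with Benjamini-Hochberg adjustment over all named genes and a threshold of 0.05. Fits were tested on simulated data. Correlations were tested by exact permutation (scipy 1.17.1). Alternatives were other scalings, minimum means, deviations from the median, priors, array weights, a replicate block and each kidney left out. The same kidneys without the block, and the TACI-Ig group without replicates 1 and 5, were added after seeing the data. Promoter sequences are from RefSeq (GRCm38.p6).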

Additional observations from a re-analysis of the deposited data

Results flagged for a closer look

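A kidney lay apart from the other 5 NZM2410 kidneys, by Dixon's ratio of its gap to the whole range, in 24 of 206 named genes and lists tested (11.7%), past the 95% critical value for 6 samples. Chance gives about 1 in 20 for genes taken at random, but most of these were chosen for a high SD in the same kidneys or for likeness to Havcr1 or Lcn2, so the share and the kidney follow in part from the choice. Over the 10659 genes with a mean of at least 6 the share was 6.84%. Replicate 3 was the outlying kidney in 20 of the 24 and replicate 2 in 4. Replicate 3 was high in Cd44 (ratio 0.654, past the mean limit only through this kidney), Havcr1 (0.794) and Vcam1 (0.626) among injury genes. It was also high in Ccr2 (0.790), Cx3cr1 (0.814), H2-DMb2, a chaperone of peptide loading (0.731), Ccl5 (0.681), Thy1 (0.640), Evi2a (0.712) and the MHC class II score (0.630). Among tubular genes it was high in Cldn16 (0.687) and Aqp3 (0.701), and low in Cndp1 (0.831), Aqp4 (0.631), Ace (0.669), Sucnr1 (0.707) and Sptssb (0.720). It was high, too, in Cdc20 (0.633), Ptgds, a prostaglandin D synthase (0.685), and Ctrb1, a pancreatic protease (0.723), although Ctrb1 ranged only from 6.19 to 6.45. Replicate 2 was the outlying kidney in Tmem72, a gene of the renal tubule (0.750, high), in the podocyte genes Tcf21 and Ptpro (each 0.650, low) and in Emcn, a sialomucin of endothelium (0.636, low).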

How the results depend on the processing

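The median SD of the matrix genes (0.39) was 0.32 to 0.44 and that of the proximal tubule genes (0.21) 0.15 to 0.23 under all alternatives run for them. After quantile normalization 0 of the 45 gene pairs passed as well, in a test that no pair could pass by itself. The 199 genes with an SD of at least 0.5 numbered 117 to 240 with each kidney left out and 143 to 222 under the other settings. The median SD of the injury genes (0.39) was 0.24 and that of the macrophage genes (0.57) 0.30 with the scaled median absolute deviation, and with each kidney left out they were 0.22 to 0.43 and 0.33 to 0.63. The spread tests depended most on the processing. Against TACI-Ig kidneys the 51 calls became 245 with arrays scaled to the same SD, 210 after quantile normalization, 83 among genes with a mean of at least 6, 89 with a trended robust prior, 0 with deviations from the median (90 greater and 557 smaller at an unadjusted p under 0.05) and 0 to 951 with each kidney left out. With TACI-Ig replicates 1 and 5 left out together, chosen after seeing the data, it was 0 (334 greater and 1812 smaller unadjusted), and the differences of Emc2 and Tmem53 (-0.29 and -0.34) were 0.0146 and 0.0482. Against late triple therapy kidneys the 2 calls became 1 with deviations from the median, 1 among genes with a mean of at least 6, 0 with the trended robust prior (247 greater and 994 smaller unadjusted) and 0 to 2 with each kidney left out. Against early triple therapy kidneys the 15 calls became 0 with that prior (802 greater and 884 smaller unadjusted) and 8 to 21 with each kidney left out. Between MP and VO kidneys the 11 calls became 53 with array weights and 0 to 48 with each MP kidney left out.

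Same-numbered kidneys did not deviate together (correlations of -0.11 to 0.13 with TACI-Ig kidneys and -0.31 to 0.07 with early triple therapy kidneys), so the numbers were not taken as pairs. With the replicate number as a block, 0 genes passed against TACI-Ig kidneys (190 greater and 1668 smaller at an unadjusted p under 0.05) and 0 against early triple therapy kidneys (682 and 726). The same kidneys without the block, an alternative chosen after seeing the data, also gave 0 and 0. No block could be fitted against late triple therapy kidneys, which share only number 6. Over all other values and alternatives, 1048 kept their size or call, 263 calls no longer passed and 123 values moved. Of the 123, 81 were values of r that moved by at least the SD of the values with each kidney left out. The rest were SDs of genes and lists, judged by their ratio to the main value. Of the values of r between gene pairs, none of which passed, 16 changed sign, in 12 pairs, 9 of the 16 without replicate 3.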
